A study of Mus musculus with 28 samples.

Results

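The genes described here are the nuclear genes of oxidative phosphorylation: those whose symbols begin with Nduf, Uqcr, Sdh, Cox4i, Cox5, Cox6, Cox7, Cox8 or Atp5 and whose counts sum to at least 100 over the 19 RNA libraries. They number 92 of the 23478 gene rows of the count tables. Of the 94 symbols with these beginnings, Cox8c (0 counts in all) and Cox7b2 (10 counts) fell under the limit, and the lowest genes inside it were Cox7a1 (401 counts) and Cox8b (575 counts). By known role, 36 are subunits of complex I (7 core, 29 accessory), 4 of complex II, 8 of complex III, 16 of complex IV (11 ubiquitous, 5 tissue isoforms) and 15 of complex V. The other 13 are 9 assembly factors and 4 relatives of subunits that the symbols catch. All 92 passed the filter on low counts in every comparison.

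RNA came from mouse lung cells labelled as alveolar type 2 (AT2) cells. Magnetic beads first removed cells that carried CD31, CD271, CD90.2, Ter119, CD45 or CD16/32 and then selected cells with Epcam. In the Yap active line (Stk3flox/flox/Stk4flox/flox SftpcCreert2, 6 libraries) the Hippo kinase genes Stk3 and Stk4 are deleted by a Cre driven from the Sftpc promoter, and its 4 control libraries carry both floxed genes without Cre. In the Yap deleted line (Yapflox/flox SftpcCreert2, 5 libraries) the same Cre deletes Yap, with 4 controls that carry floxed Yap without Cre. Yap was activated or deleted at postnatal day 3 and cells were taken at postnatal day 14 in every group. The question for these genes is whether their levels differ between libraries labelled active or deleted and their controls, complex by complex, in each line. The labels do not say which library came from which animal, so p-values measure the spread between libraries.

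Oxidative phosphorylation takes place in the inner mitochondrial membrane. Complexes I and II pass electrons from NADH and succinate to ubiquinone, complex III passes them on to cytochrome c, and complex IV passes them to oxygen. Complexes I, III and IV pump protons, and complex V, the ATP synthase, uses the proton gradient to make ATP. AT2 cells are rich in mitochondria and spend ATP on making and secreting surfactant. All complexes except II also hold subunits encoded by mitochondrial DNA, which are not analysed here.

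Sequencing depth, as the sum of a library over all gene rows, was 35.0 M to 43.5 M for the Yap active line and 31.9 M to 42.9 M for the Yap deleted line, and these genes took 0.336% to 0.703% of them. Esr1, whose ligand-binding part is in the Cre driver, went against 3 labels: it was at 1.97 CPM (counts scaled to 1 fixed library size) in the library labelled active 1, 160.0 in the library labelled active control 2 and 87.1 in the library labelled deleted control 2, while the other libraries labelled active or deleted held at least 211 and the other controls at most 3.91. Stk3 lay at 30.6 to 35.4 CPM in active 2 to 6 and at 49.5 in active 1, with controls at 53.5, 50.2, 54.6 and 34.0. Yap1 lay at 78.3 to 142 CPM in deleted libraries and at 119 to 215 in their controls. In the Yap deleted line, where Stk3 is not floxed, Stk3 lay at 40.5 and 37.5 CPM in controls 1 and 2. It was at 19.8 to 27.0 CPM in the other libraries of that line. Stk3 thus also differed between controls of the same line, and reads outside the floxed exons count toward these genes, so the check is partial. The 7 AT2 markers together were high in every library, at 24602 to 131089 CPM. Markers of endothelium were at 1643 and 1339.5 CPM in the libraries labelled deleted control 1 and 2 and at 253 or less in each of the others. In bulk RNA, fewer cells of a type and less RNA per cell cannot be told apart.

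In the Yap active line the summed level of the 92 genes was 3182 CPM in the library labelled active 1, and 5562, 5825, 5890.1, 6063 and 7679 CPM in active 2 to 6. Its controls held 3603, 4007, 3342 and 5845 CPM. The groups overlapped from end to end: active 1 was the lowest of all 10 libraries, and control 4 lay above active 2 and 3. The same split ran through each complex. Complex I summed to 823 CPM in active 1, 1497 to 2173 in active 2 to 6, 972, 1089.7 and 872 in controls 1 to 3, and 1586 in control 4. For complex IV the corresponding sums were 367 CPM, 822 to 1244, 444, 488 and 383, and 889.6.

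**Figure D1:**
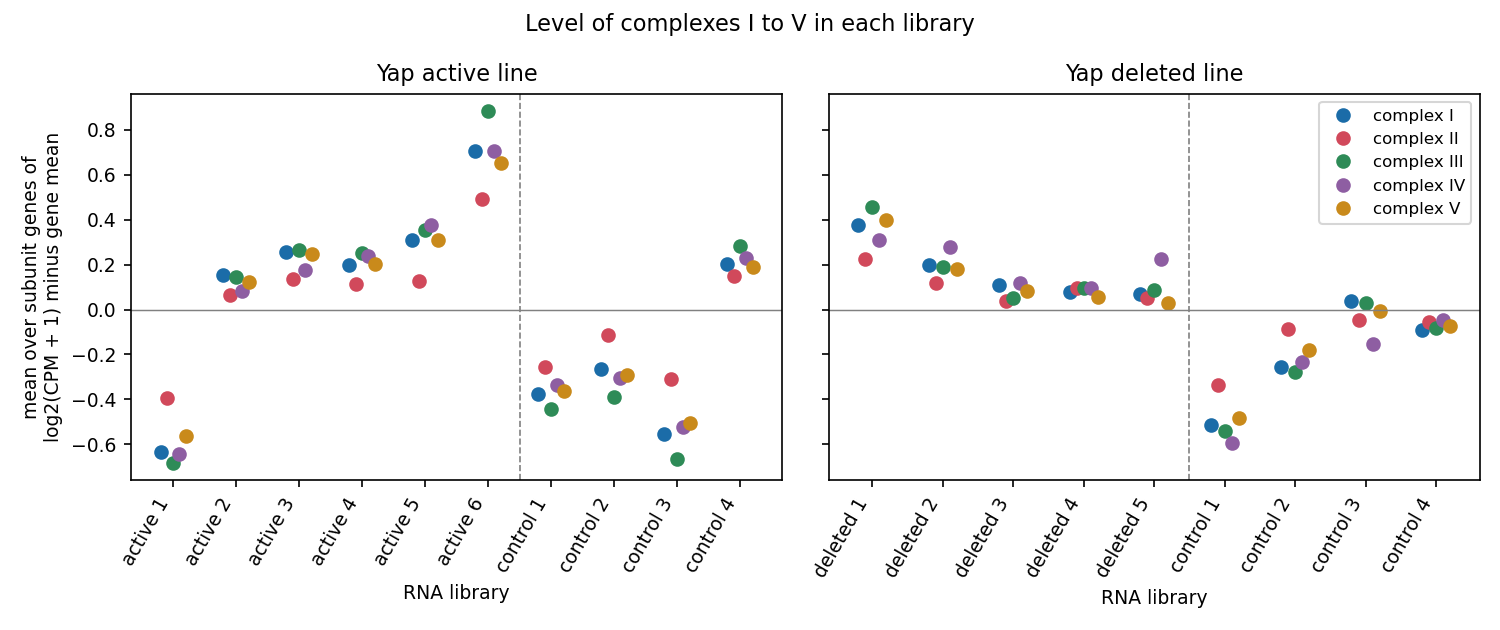
Mean over the subunit genes of each complex of log2(CPM + 1), each gene centred on its mean over the libraries of its line, for every RNA library. Libraries labelled active or deleted are left of the dashed line and those labelled controls right of it. Active 1 and controls 1 to 3 are below 0 for every complex and active 2 to 6 and control 4 above it, and deleted control 1 is the lowest of its line.

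The split also follows the deposited table, in which active 2 to 6 and control 4 stand in the first 6 columns and active 1 and controls 1 to 3 in the last 4. Between controls alone, control 4 exceeded the mean of controls 1 to 3 by a median of 0.53 on the log2(CPM + 1) scale over the 92 genes (79 higher, 13 lower), against −0.02 over all genes tested. Within the first set, active 2 to 6 exceeded control 4 by a median of 0.10, with 73 of 92 higher. Within the second, active 1 lay below the mean of controls 1 to 3 by a median log2 difference of −0.22, with 88 of 92 lower. The direction of active against control thus differed between the 2 sets, and no batch is named by the labels. The second set holds 2 libraries whose Esr1 went against the label: active 1 (1.97 CPM) and control 2 (160.0 CPM). Control 2 had the highest sum over the 92 genes in that set and active 1 the lowest, so the direction there depends on the labels.

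None of the 92 genes passed edgeR's quasi-likelihood test at a Benjamini-Hochberg adjusted p of 0.05 in the Yap active line, where 0% of all 15685 genes tested passed. At an unadjusted p under 0.05, 8 were higher (8.7%, against 6.65% of all genes) and 1 was lower (against 5.98%). DESeq2 called 0 of the 92 higher (0.0893% of all genes) and 0 lower (0.0255% of all genes). Limma-voom with sample quality weights called 69 higher (28.6% of all genes) and 4 lower (28% of all genes). No gene of the 92 separated the groups in either direction, as 0.465% of all genes did upward and 0.478% downward. The fitted log2 fold changes were above 0 for 84 of the 92 (49.4% of all genes), with a median of 0.38 against −0.01 over all genes. With a term for the library set the median was −0.04, with 28 above 0. Without the libraries labelled active 1 and control 2 it was 0.48, and with both changes 0.12. With both changes, active 2 to 6 are set against control 4 as the only control of their set. Without control 4 alone the median was 0.57.

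By complex, the median log2 fold change in the Yap active line was 0.38 for complex I, 0.21 for II, 0.56 for III, 0.40 for IV and 0.47 for V. It was 0.23 for the assembly factors and 0.25 for the 4 relatives. Without control 4 the medians of complexes I to V were 0.60, 0.31, 0.84, 0.57 and 0.63, and without active 6 they were 0.31, 0.10, 0.41, 0.28 and 0.30. With the library set term they were −0.05, −0.07, −0.02, −0.08 and −0.04. With that term and without the libraries labelled active 1 and control 2, whose Esr1 went against the label, every complex median was above 0.

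The core subunits of complex I carry the iron-sulphur clusters and flavin that electrons cross, and the accessory subunits surround them. Ndufs1, the largest core subunit, varied little: it lay at 33.5 to 42.2 CPM with a median of 38.6 in the 6 active libraries and at 37.4, 43.4, 37.7 and 35.7 CPM in the controls (log2 fold change −0.01 ± 0.10 SE). Active 1 was not low for this gene, unlike for most others. Ndufv1, which binds NADH, was at 59.8 CPM in active 1 and 97.7 to 111 in active 2 to 6, against 62.8, 70.2, 58.3 and 106 CPM in controls 1 to 4 (0.38 ± 0.21 SE). Among accessory subunits Ndufb2 had the smallest unadjusted p of those higher, at 8.39 CPM in active 1 and 19.0 to 38.2 in active 2 to 6, against 9.78, 9.92, 9.14 and 18.5 CPM in controls (log2 fold change 0.92 ± 0.37 SE, adjusted p = 0.366). Every control lay below all of active 2 to 6, control 4 by a narrow margin, and active 1 lay below every control.

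Complex II is also an enzyme of the citric acid cycle. Its flavoprotein gene Sdha lay at 123 to 169.8 CPM with a median of 153 in active libraries and at 126, 149.7, 131 and 161 in controls (0.08 ± 0.13 SE). Sdhb, the iron-sulphur subunit, was at 21.4 to 60.5 CPM with a median of 35.6, against 23.1, 26.9, 20.5 and 35.7 (0.49 ± 0.26 SE). The membrane anchors Sdhc and Sdhd had log2 fold changes of 0.18 ± 0.15 and 0.24 ± 0.20 (SE). In complex III, the 8 subunits were between 0.16 (Uqcrb) and 0.88. The core proteins Uqcrc1 and Uqcrc2 were at 0.38 ± 0.21 and 0.29 ± 0.24 and the Rieske protein Uqcrfs1 at 0.29 ± 0.19 (SE). Without active 6, Uqcrc2 was at 0.078.

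Of complex IV, Cox5a, a nuclear subunit found in all tissues, was at 21.2 CPM in active 1 and 36.5 to 50.9 in active 2 to 6, against 19.5, 23.5, 20.6 and 36.6 in controls (0.62 ± 0.25 SE, edgeR adjusted p = 0.366). Cox6a1 lay at 60.3 CPM in active 1 and 174 to 214 in active 2 to 6, with controls at 61.0, 70.6, 58.3 and 175 (0.92 ± 0.40 SE). Cox4i1, the ubiquitous form of subunit 4, was at 70.3 CPM and 185 to 307 in the same order, with controls at 90.2, 108, 76.6 and 201 (0.71 ± 0.37 SE). For these genes control 4 sat among or next to active 2 to 6. Active 1 lay among controls 1 to 3 for Cox5a and Cox6a1 and below them for Cox4i1.

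In complex V, the catalytic subunits Atp5a1 and Atp5b had log2 fold changes of 0.24 ± 0.16 and 0.41 ± 0.20 (SE). The genes Atp5g1, Atp5g2 and Atp5g3 all encode the same mature c subunit of the membrane ring, and they had 0.82 ± 0.40, 0.61 ± 0.32 and 0.41 ± 0.23 (SE). Atp5k, the e subunit, ran the other way across libraries: it was at 3.23 CPM in active 1 and 1.25 to 1.88 in active 2 to 6, against 3.97, 3.09, 2.35 and 1.29 in controls (−0.49 ± 0.35 SE). Among genes outside the complexes, Atp5s, a factor related to the coupling of the synthase, had the smallest unadjusted p of those lower: 4.75 to 8.24 CPM with a median of 5.96 in active libraries, and 9.89, 9.58, 8.77 and 6.28 in controls (−0.51 ± 0.20 SE, edgeR adjusted p = 0.366). Active 6 lay above control 4, so the groups overlapped here too. Among complex I assembly factors, Ndufaf6 lay at 1.43 CPM in active 1 and 3.43 to 5.65 in active 2 to 6, against 2.20, 2.33, 1.198 and 2.31 in controls (0.86 ± 0.35 SE), and Ndufaf1 had a log2 fold change of −0.32 ± 0.16 (SE).

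**Figure D2:**
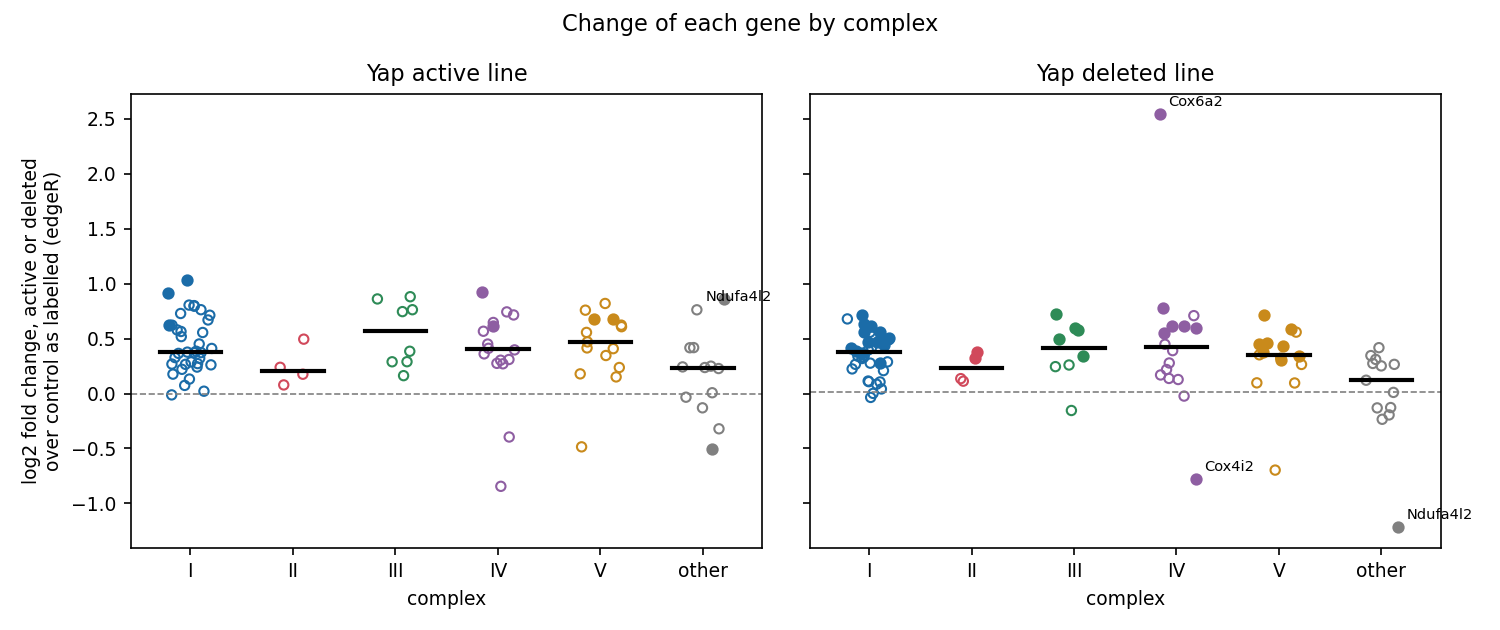
Log2 fold change (edgeR) of each of the 92 genes, libraries labelled active or deleted over those labelled control, by complex, with assembly factors and relatives as other. Filled points have an unadjusted p under 0.05, bars are medians and the dashed line is the median of all genes tested. Most points of both lines lie above 0, and Cox6a2, Cox4i2 and Ndufa4l2 stand apart in the Yap deleted line.

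In the Yap deleted line the 92 genes summed to 6164, 5383, 4993, 5154 and 5127 CPM in deleted 1 to 5 and to 3152, 3850.3, 4793 and 4651 CPM in controls 1 to 4. Every deleted library lay above every control, by a narrow margin over controls 3 and 4. Controls 1 and 2 were the lowest, and these are the 2 libraries that held the high endothelial markers; lymphocyte markers summed to 50.0 and 163.9 CPM in them and to at most 6.28 in the other 7. Neutrophil markers summed to 57.5 and 628 CPM in them, against at most 14.4 elsewhere, and markers of dividing cells to 149.98 and 189.6 CPM, against at most 94.7. Ciliated markers were lower in them, at 265 and 203 CPM against 898 to 1599 elsewhere, and so were AT2 markers, at 27903 and 24602 CPM against 42517 or more. Controls 1 and 2 also stand in the last columns of the deposited table, after the other 7 libraries. No batch is named by the labels. Controls 3 and 4 exceeded controls 1 and 2 by a median of 0.30 on the log2(CPM + 1) scale, with 64 of 92 higher. Over all genes tested the median was −0.03. The part of these cell types or of a library set in the result was not tested, but values without controls 1 and 2 follow.

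None of the 92 genes passed edgeR's test in this line (0.00632% of all 15818 genes did). At an unadjusted p under 0.05, 36 were higher (39.1%, against 6.13% of all genes) and 2 were lower (against 9.18%). DESeq2 called 3 higher (Cox6a2, Uqcr11 and Cox5a; 1.14% of all genes) and 1 lower (Ndufa4l2; 3.86% of all genes), and limma-voom called 0. The CPM of deleted libraries lay wholly above that of controls for 15 genes (2.64% of all genes) and wholly below for 1 (1.25% of all genes). Fold changes were above 0 for 82 of 92 (51% of all genes), with a median log2 fold change of 0.34 against 0.01 over all genes. Without controls 1 and 2 the median was 0.17, again with 82 above 0, and 0 of the 92 were called.

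The medians of complexes I to V in the Yap deleted line were 0.38, 0.23, 0.42, 0.42 and 0.35, and without controls 1 and 2 they were 0.16, 0.11, 0.17, 0.21 and 0.18. Assembly factors had a median of 0.25 and the 4 relatives −0.06. In either direction, unadjusted p fell under 0.05 for 15 of 36 genes of complex I (14 accessory, 1 core) and 2 of 4 of complex II. It did for 5 of 8 of complex III, 7 of 16 of complex IV, 8 of 15 of complex V and 0 of 9 assembly factors. Over all genes tested it did for 2422 of 15818. Among those counted in the complexes, Cox4i2 of complex IV was lower (log2 fold change −0.78).

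Ndufs1 was level again, at 37.2, 34.8, 37.2, 36.2 and 35.6 CPM in deleted libraries and 38.3, 39.8, 31.3 and 35.3 CPM in controls. Ndufb2 lay at 19.6, 14.7, 15.4, 16.7 and 12.7 CPM in deleted libraries, against 6.21, 7.76, 11.8 and 12.7 CPM in controls (0.72 ± 0.24 SE, edgeR adjusted p = 0.257). Its groups did not overlap, though deleted 5 and control 4 were nearly equal. In complex III, Uqcr11, a small accessory subunit, was at 41.1, 27.7, 30.2, 28.3 and 27.0 CPM, against 13.7, 17.5, 23.2 and 20.3 CPM (0.72 ± 0.19 SE, edgeR adjusted p = 0.247). Its groups did not overlap, and without controls 1 and 2 its log2 fold change was 0.47 (edgeR adjusted p = 0.801). Uqcrb, which lines the ubiquinone site, was at −0.15 ± 0.15 (SE), with controls 1 and 2 its highest controls at 19.3 and 23.3 CPM.

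Cox5a lay at 40.7, 36.9, 32.96, 39.4 and 33.8 CPM in deleted libraries and at 17.3, 22.2, 28.8 and 27.8 CPM in controls, without overlap (0.61 ± 0.16 SE, edgeR adjusted p = 0.247). Without controls 1 and 2 the log2 fold change was 0.35 (edgeR adjusted p = 0.715). Cox6a1 was at 215, 186, 169, 160.0 and 152 CPM against 56.5, 77.4, 154 and 123 (0.78 ± 0.27 SE), and deleted 5 fell just under control 3. Cox4i1 was at 230.2, 188, 173, 177 and 181 CPM against 70.0, 99.2, 172 and 155 (0.61 ± 0.25 SE). In complex V, Atp5b was at 674, 588, 529, 587 and 559 CPM against 356, 417, 523 and 513 (0.38 ± 0.15 SE), and Atp5g1, Atp5g2 and Atp5g3 had log2 fold changes of 0.71 ± 0.29, 0.59 ± 0.24 and 0.35 ± 0.14 (SE).

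**Figure D3:**
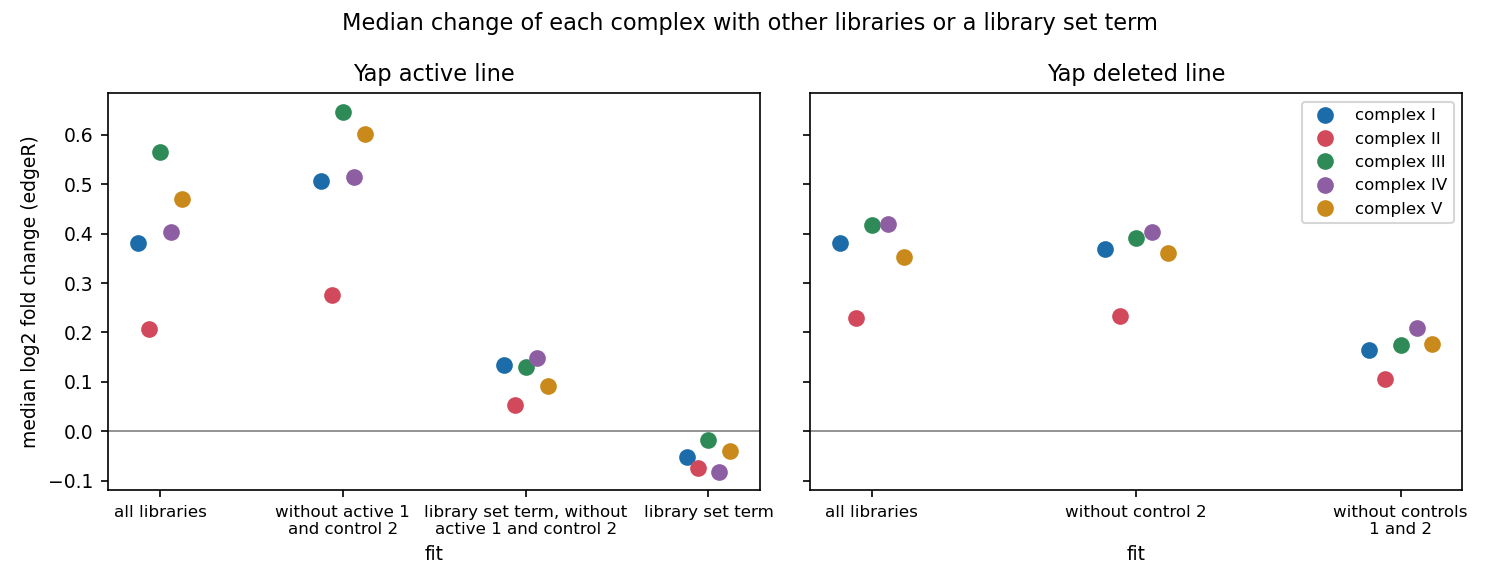
Median log2 fold change (edgeR) over the subunit genes of each complex, under the reported fit and under fits that leave libraries out or add a term for the library set. In the Yap active line the medians run from 0.21 to 0.56 with all libraries and from −0.08 to −0.02 with the set term. With the set term and without active 1 and control 2 they stay above 0. In the Yap deleted line they fall to 0.11 to 0.21 without controls 1 and 2.

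Some tissue isoforms and relatives of subunits stood apart from the ubiquitous forms. Cox6a2 is the heart and skeletal muscle form of subunit 6a. It lay at 23.1, 29.6, 19.1, 28.0 and 65.8 CPM in deleted libraries and at 1.04, 2.46, 4.44 and 14.9 CPM in controls, all lower than any deleted library (log2 fold change 2.54 ± 0.74 SE, edgeR adjusted p = 0.247, DESeq2 adjusted p = 0.00886). Deleted 5 was far above the others. Without controls 1 and 2 the log2 fold change was 1.75 (edgeR adjusted p = 0.729). In the Yap active line Cox6a2 was at 1.47 CPM in active 1 and 5.96 to 18.0 in active 2 to 6, with controls at 3.28, 2.88, 3.92 and 17.8 CPM (0.57 ± 0.70 SE), so control 4 reached the active libraries. The log2 fold change there was 1.63 without control 4, 0.31 without control 2 and −0.84 with the library set term. Markers of cardiac and striated muscle are given beside Cox6a2, which is known from muscle. They summed to 64.1 to 231 CPM in deleted libraries and 28.3 to 195 in their controls. Of the 5 tested there, 2 were higher and 3 lower, with a median log2 fold change of −0.16. In the Yap active line 0 were higher and 6 lower, with a median log2 fold change of −1.15. Their part was not tested. The span of Cox6a2 in RefSeq overlaps that of Itgad, so reads of the 2 genes may not be told apart.

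Ndufa4l2, a relative of the complex IV subunit Ndufa4 that is known as a target of hypoxia-inducible factor and as a gene of pericytes, was the 1 gene that DESeq2 called lower in deleted libraries. It lay at 7.67, 7.71, 5.79, 4.81 and 5.80 CPM there and at 17.5, 23.8, 9.65 and 8.09 CPM in controls, without overlap (log2 fold change −1.22 ± 0.32 SE, edgeR adjusted p = 0.247, DESeq2 adjusted p = 0.0126). Controls 1 and 2 were the highest, and without them the log2 fold change was −0.51 (edgeR adjusted p = 0.810). Cox4i2, the oxygen-regulated lung form of subunit 4, also present in pericytes and smooth muscle, was at 13.8, 11.8, 14.3, 10.3 and 9.36 CPM in deleted libraries and 25.9, 31.7, 14.01 and 10.3 CPM in controls (−0.78 ± 0.32 SE), and its log2 fold change was −0.49 without control 2 and −0.06 without controls 1 and 2. Pericyte and smooth muscle markers summed to 695 to 1059 CPM in deleted libraries and 779 to 1187 in controls, and the endothelial markers above were highest in the same 2 controls. The part of these cells was not tested. A list of 8 hypoxia response genes summed to 753, 627, 1822 and 928 CPM in controls 1 to 4 and to 517 to 1015 in deleted libraries. Of these, 4 were higher and 4 lower, with a median log2 fold change of −0.02. The part of hypoxia was not tested.

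In the Yap active line Ndufa4l2 was at 2.95 CPM in active 1 and 3.93 to 14.4 in active 2 to 6, against 5.01, 3.80, 3.80 and 3.80 CPM in controls (0.76 ± 0.41 SE). Cox4i2 lay at 7.11 to 17.7 CPM with a median of 10.97, against 8.96, 8.77, 9.53 and 9.14 CPM (0.36 ± 0.26 SE). The spread over active libraries was wide for both and the controls were close together. Without active 5 the log2 fold changes were 0.42 for Ndufa4l2 and 0.21 for Cox4i2. Of the 8 hypoxia response genes, 2 were higher and 6 lower in this line, with a median log2 fold change of −0.26. Their relation to Ndufa4l2 and Cox4i2 was not tested.

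**Figure D4:**
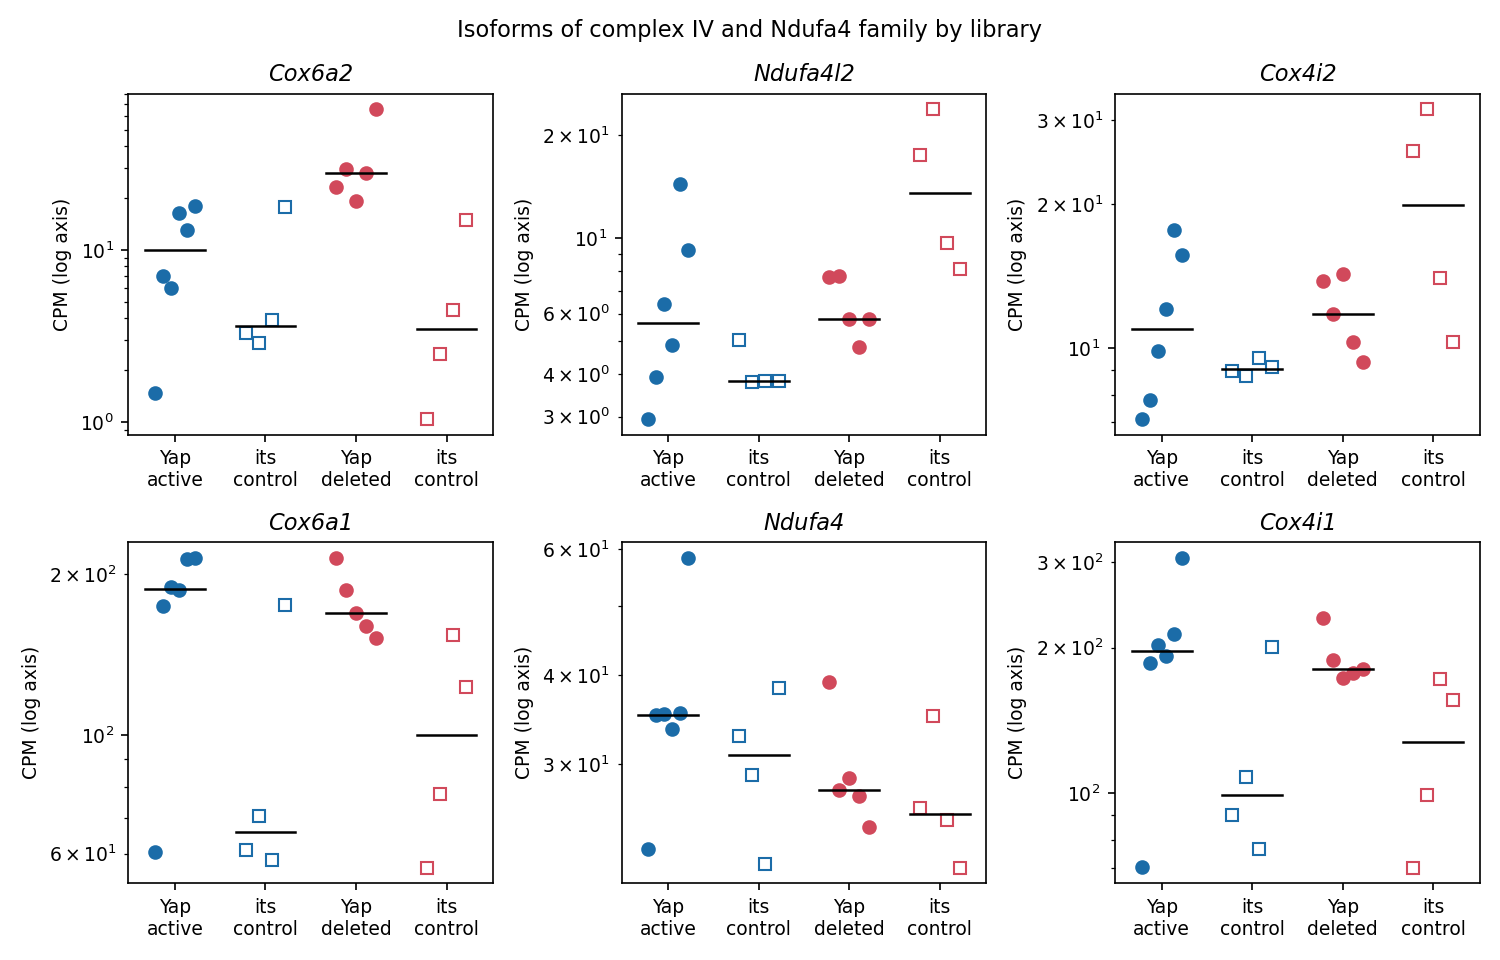
CPM on a log axis in each library (filled circles labelled active or deleted, open squares labelled control, bars medians) for Cox6a2, Ndufa4l2 and Cox4i2 and for the ubiquitous relatives Cox6a1, Ndufa4 and Cox4i1. Cox6a2 is above, and Ndufa4l2 below, all controls in the Yap deleted line, and 1 control of the Yap active line lies among its active libraries for Cox6a2, Cox6a1 and Cox4i1.

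The remaining isoforms showed no separation. Cox6b2, the testis form of subunit 6b, lay at 6.11 to 9.38 CPM in active libraries and 4.91 to 7.23 in their controls (0.31 ± 0.18 SE), and at 7.78 to 19.5 and 7.08 to 14.9 CPM in the other line (0.39 ± 0.34 SE). Cox7a1 and Cox8b, muscle forms, were near the floor of detection, at 0.235 to 0.952 CPM and 0.0551 to 3.39 CPM over all libraries. Of the ubiquitous forms, Ndufa4 had log2 fold changes of 0.27 ± 0.24 and 0.13 ± 0.18, Cox7a2 0.40 ± 0.28 and 0.17 ± 0.18, and Cox8a 0.65 ± 0.33 and 0.55 ± 0.24 (SE) in the active and deleted lines. Cox7a2l, a factor for respiratory supercomplexes, had 0.25 ± 0.23 and 0.42 ± 0.20 (SE).

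The change in one line was set against the change in the other in a single model, as the Yap active change minus the Yap deleted change. None of the 92 genes passed edgeR's test (0% of all 16308 genes). DESeq2 called 0 higher (0.0736% of all genes) and 0 lower (0.0307%), and limma-voom 0 higher (0.117%) and 0 lower (0.0123%). The difference was above 0 for 62 of the 92 (52.3% of all genes). At an unadjusted p under 0.05, 2 genes were higher (4.56% of all genes): Ndufa4l2 (difference 1.97 ± 0.55 SE, edgeR adjusted p = 0.696) and Cox4i2 (1.13 ± 0.42 SE, edgeR adjusted p = 0.732); 0 were lower (1.91% of all genes). Cox6a2 was at −1.96 ± 1.04 (SE), at −0.92 without active control 4 and at −3.06 without deleted control 4. Without deleted controls 1 and 2 the differences of Ndufa4l2 and Cox4i2 were 1.24 and 0.39. For complexes I to V the median difference was 0.08, 0.00, 0.20, 0.10 and 0.08.

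Genes around the pathway were read from lists made for it, and 0 of their genes were called in either line. Of 7 electron carriers and subunits with other names, Cyc1, the cytochrome c1 of complex III, had log2 fold changes of 0.60 ± 0.30 and 0.53 ± 0.15 (SE) in the active and deleted lines, and Usmg5, a small complex V subunit, −0.81 ± 0.46 and −0.70 ± 0.44 (SE). Of 14 regulators of mitochondrial genes, 9 and 8 were above 0, with medians of 0.11 and 0.09. Esrra, a nuclear receptor that acts on them, had the smallest p of those higher, with 0.44 ± 0.19 and 0.41 ± 0.10 (SE). Of those lower it was Ppargc1a in the active line (−0.50 ± 0.18 SE) and Gabpa in the deleted line (−0.43 ± 0.19 SE). Unadjusted p fell under 0.05 for 2 higher and 2 lower regulators in the active line (6.65% and 5.98% of all genes). In the deleted line it did for 1 and 1 (6.13% and 9.18% of all genes). The 13 citric acid cycle genes had a median of 0.25 in each line. The 16 glycolysis genes had medians of 0.59 (13 above 0) and 0.34 (15 above 0). At an unadjusted p under 0.05, 12 of them were higher and 0 lower in the Yap active line (6.65% and 5.98% of all genes), and 2 were higher and 1 lower in the Yap deleted line (6.13% and 9.18% of all genes). Their sums followed the same libraries: 1134 CPM in active 1, 1936 to 2050.0 in active 2 to 6, 970.4, 1221 and 1019 in controls 1 to 3 and 1838 in control 4. AT2 markers did so as well, at 36309 CPM in active 1, 77919 to 102997 in active 2 to 6, 39490 to 54793 in controls 1 to 3 and 131089 in control 4. Club and goblet cell markers split likewise, at 5131 CPM in active 1, 11758 to 19292 in active 2 to 6, 3510 to 5101 in controls 1 to 3 and 11289 in control 4. Fibroblast markers ran the other way, at 5965 CPM, 901 to 3690, 3203 to 6138 and 2071 in the same order, and so did endothelial markers, at 107 CPM, 14.8 to 40.4, 62.7 to 253 and 31.6. The part of these cells in the result was not tested.

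Accessible chromatin was read from the authors' 4 lists of regions by ATAC-seq, made for the lines without values per library. The series holds 3 active and 3 active control ATAC libraries, but only 2 deleted and 1 deleted control. The lists of the 2 lines thus rest on unequal numbers of libraries. In the list of regions opened in Yap active cells (6017 regions), 11 of the 92 genes (12%) were the gene nearest to a region within 1 kb of its start site, close to the 11.6% of all genes in the count table. They were Atp5j, Ndufb5, Ndufv2, Atp5d, Ndufa2, Atp5g2, Ndufb6, Ndufb7, Ndufc1, Ndufa13 and Ndufa10, that is 8 of complex I and 3 of complex V. The list of regions closed in Yap active cells (1392 regions) named 0 of them within 1 kb (0.277% of all genes), and 3 at any distance (3.26%, against 4.98% of all genes): Ndufv1, Ndufb7 and Uqcr11. The lists of the Yap deleted line (532 opened and 676 closed regions) named 0 of the 92 within 1 kb (0.362% and 0.145% of all genes) and 0 at any distance (2.04% and 2.41% of all genes). Among the opened regions named for these genes, the one with the highest authors' score (151, rank 491 of the 6017 in its list) covered the start of Atp5j at chr16:84834181-84836758 (mm10), where RefSeq also places the divergent start of Gabpa, a subunit of the factor NRF2 (GABP). The log2 fold change of Atp5j in RNA was 0.18 ± 0.15 (SE) in the Yap active line. Of Atp5g2, whose region is at chr15:102670555-102672209, it was 0.61 ± 0.32, and of Ndufb7, whose region is at chr8:83566193-83567500, 0.79 ± 0.38 (SE).

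The 250 bases before a start site of each of these 3 genes are printed because each window lies wholly inside an opened region and each shows another of the motifs searched. Capitals mark every match of the 6 motifs. For Atp5j this is an inner start site: the RefSeq span of the gene reaches chr16:84835857, so most of its window lies within the gene. The windows are from RefSeq on GRCm38.p6, 5′ to 3′ on the gene's strand: chr16:84835626-84835875 (minus) for Atp5j, chr15:102671048-102671297 (minus) for Atp5g2 and chr8:83566508-83566757 (plus) for Ndufb7.
Atp5j: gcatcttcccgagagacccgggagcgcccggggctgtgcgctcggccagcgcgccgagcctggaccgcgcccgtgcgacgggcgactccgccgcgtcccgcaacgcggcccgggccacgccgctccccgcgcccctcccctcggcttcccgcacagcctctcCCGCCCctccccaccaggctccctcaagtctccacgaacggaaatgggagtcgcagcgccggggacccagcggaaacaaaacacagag
Atp5g2: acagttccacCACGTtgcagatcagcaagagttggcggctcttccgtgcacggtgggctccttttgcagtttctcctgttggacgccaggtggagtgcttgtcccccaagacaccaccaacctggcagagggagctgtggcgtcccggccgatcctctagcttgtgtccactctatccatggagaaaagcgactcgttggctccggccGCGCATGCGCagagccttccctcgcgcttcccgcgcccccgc
Ndufb7: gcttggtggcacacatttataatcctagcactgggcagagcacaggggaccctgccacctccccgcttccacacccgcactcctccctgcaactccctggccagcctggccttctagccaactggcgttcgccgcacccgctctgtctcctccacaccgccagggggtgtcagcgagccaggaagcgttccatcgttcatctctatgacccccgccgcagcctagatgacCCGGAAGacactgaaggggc
The capitals are the letters of an Sp and Klf motif in Atp5j, of a hypoxia motif and then an NRF1 motif in Atp5g2, and of an ETS motif, the kind that GABP binds, in Ndufb7.

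Promoter windows of 300 bases (250 before to 50 after the start) were found for 74 of the 92 genes and searched on both strands. The NRF1 motif, GCGCA followed by any 1 base and then GCGC, was in 19 of 74 (25.7%), against 5.19% of all 27025 genes with a window and 7.25% of the 16647 of these that are in the count table. Both shares follow in this order for the other motifs. It was in 6 of 13 genes of complex V, 7 of 32 of complex I, 2 of 3 of complex II, 1 of 5 of complex III and 1 of 12 of complex IV. The ETS letters CCGGAAG were in 19 of 74 (25.7%, against 9.93% and 12.9%) and the YY1 letters AAGATGGC in 9 of 74 (12.2%, against 3.19% and 3.64%), 7 of them in complex I. The Sp and Klf letters GGGCGG were in 33 (44.6%, against 38.2% and 50.2%), the hypoxia letters ACGTG in 18 (24.3%, against 21.8% and 23.6%), and the TEAD letters GGAATG, of the factors that carry Yap to DNA, in 8 (10.8%, against 16.6% and 15.5%). These are matches of letters and describe the windows only.

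The spans of 16 of the 89 members found in RefSeq overlap another gene of the count table, Ndufs1, Uqcrc2, Cox4i2, Cox6a2, Atp5a1, Atp5b, Atp5j and Ndufa4l2 among them. Many of these genes also have processed pseudogenes, and the counting of reads shared with them was not analysed here.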

How the data were processed

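The authors deposited whole-number counts per gene, 1 table per line, for 19 RNA libraries. The submitters' processing notes list, with no roles given, HOMER, Cufflinks, DESeq, Bowtie2 and Trim Galore, and the build mm10. The counting program and annotation are not given in the sources used here. The region lists hold the authors' score per region, annotated with HOMER per the file headers; scores only ranked regions within a list.

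All genes that filterByExpr kept were fitted with edgeR 4.0.16 after TMM scaling (robust quasi-likelihood, two-sided, R 4.3.3), with Benjamini-Hochberg adjustment over all genes tested. Genes were called at an adjusted p under 0.05. CPM is relative to the scaled library size. Complex levels used log2(CPM + 1). The fits were tested on simulated data: of 100 genes changed by 1 on the log2 scale, edgeR recovered 41 in the Yap active design and 29 in the Yap deleted design, and of 100 changed by 2 it recovered 91 and 78. Genes were drawn independently, with no library sets, label conflicts or shifts of cell types. Changes under 1 were not simulated, so these shares do not give the power for the smaller medians reported here.

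The genes and lists were chosen with earlier results of these data known. Named in each line were set anchor subunits, isoforms and, per comparison, the 3 genes with the smallest p in each direction; from other lists, the gene with the smallest p in each direction. The listed rest are examples chosen after their values were seen. Replicate numbers were not taken as pairs. Alternatives were DESeq2 1.42.0, limma 3.58.1 (voom), a replicate block, each library left out, RLE scaling, a filter at 1 count, other region distances and a pseudocount of 0.1; fits with a library set term or without libraries that stand apart were chosen after seeing the data. The 9 ATAC libraries entered only through the authors' lists. The 27 gene names turned into dates were not turned back into symbols, and their rows stayed in the counts that were filtered and fitted. Every pair of libraries within a group differed by more than sampling noise.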

Additional observations from a re-analysis of the deposited data

Results flagged for a closer look

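Within each group, the highest and lowest library was set against the rest for each named gene and for the summed CPM of each complex. In 172 such comparisons 27 (15.7%) held a library farther from the others than Dixon's 95% limit, where chance flags about 1 in 20. The genes share libraries, so the flags are not independent.

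The library labelled active 1 accounted for 9. It was the lowest active library for Atp5a1 (385 CPM), Atp5b (421 CPM), Atp5g1 (6.14 CPM), Atp5g2 (7.61 CPM), Cox6a1 (60.3 CPM), Ndufv1 (59.8 CPM), Uqcrc1 (52.1 CPM) and the sum of complex V (1227 CPM), and the highest for Atp5k (3.23 CPM). Active 6 was the highest of its group for Cox5b (19.3 CPM), Ndufa4 (58.5 CPM), Sdhd (175 CPM) and Uqcrc2 (98.6 CPM). Among active controls, control 4 was the highest for 6 genes: Atp5g1 (18.6 CPM), Cox6a1 (175 CPM), Cox6a2 (17.8 CPM), Cox8a (229 CPM), Ndufb2 (18.5 CPM) and Uqcrc1 (90.3 CPM). Control 1 was the highest for Ndufa4l2 (5.01 CPM), where the other 3 lay at 3.80 CPM, and control 3 the lowest for Ndufaf6 (1.198 CPM).

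In the Yap deleted line, deleted 1 was the highest of its group for Cox4i1 (230.2 CPM), Ndufa4 (39.1 CPM) and Uqcr11 (41.1 CPM), and deleted 5 for Cox6a2 (65.8 CPM). The library labelled deleted control 2 was the highest control for Cox5b (13.3 CPM), and deleted control 1 the lowest for the sum of complex II (312 CPM). No gene passed the test of the difference between lines.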

How the results depend on the processing

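No member was called by edgeR in either line or in the difference under RLE scaling, no filter, the replicate block, each library left out (0 to 0) or the added fits. The count was 73 in the Yap active line with limma-voom and 4 in the Yap deleted line with DESeq2. The median change kept its sign with each library left out (0.29 to 0.57 in the Yap active line, 0.25 to 0.39 in the Yap deleted line). Of 37 named genes, leaving out a single library moved the log2 fold change by over 1.5 times for 28 in the Yap active line (17 without control 4, 10 without active 6) and 18 in the Yap deleted line (10 without control 1 and 10 without control 2). The cause of these changes and those below was not tested.

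With the library set term in the Yap active line, the median over all members became −0.044, and over complexes I to V −0.052, −0.074, −0.018, −0.082 and −0.040. Single log2 fold changes that changed sign there were Ndufs1 0.045, Ndufv1 −0.058, Ndufb8 −0.054, Ndufa1 −0.066, Sdha −0.094, Sdhc −0.082, Sdhd −0.066, Uqcrc1 −0.041, Uqcrc2 −0.080, Uqcrfs1 −0.083, Uqcr11 −0.033, Cox4i1 −0.11, Cox6c −0.078, Cox6a2 −0.84, Cox7a2 −0.025, Cox7a2l −0.21, Cox8a −0.10, Ndufa4 −0.11, Atp5a1 −0.069, Atp5g1 −0.046, Atp5g2 −0.12, Atp5g3 −0.073 and Atp5k 0.19. With that term and without active 1 and control 2 they were Ndufs1 0.090, Ndufv1 −0.028, Ndufa1 −0.018, Sdha −0.054, Uqcrc1 −0.028, Cox6c −0.057, Cox6a2 −0.56, Cox8b 2.27, Atp5a1 −0.0077 and Atp5k 0.35. Without these 2 libraries alone, Ndufs1 was at 0.036. The medians over all members and over complexes I to V stayed above 0 in each fit without these 2 libraries.

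In the Yap deleted line, without controls 1 and 2 Ndufaf1 was at 0.11 and Atp5k at 0.10. Ndufs1 was at −0.025 with RLE scaling and −0.025 with DESeq2, and Cox7a1 at 0.11 with limma-voom. With single libraries left out, Ndufs1 ran from −0.076 to 0.050 in this line and from −0.041 to 0.051 in the other, Cox7a1 from −0.27 to 0.19 and Ndufa4 from −0.023 to 0.28.

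Same-numbered libraries correlated at 0.57, 0.04, 0.06 and 0.54 in the Yap active line and −0.26, 0.47, 0.15 and 0.36 in the Yap deleted line. For controls 1 and 4 of the Yap active line and 2 and 4 of the Yap deleted line, no other number correlated higher. For the other controls another number did, and the numbers were not taken as pairs. With the replicate block the median changes were 0.19 and 0.33, with 0 members called, and Cox4i2 (Yap active) was at −0.015, Ndufs1 (Yap deleted) at −0.018, Cox7a1 (Yap deleted) at 0.010 and Cox8b (Yap deleted) at −0.031.

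The list of regions closed in Yap active cells named 2 members within 10 kb (1.83% of all genes) and 3 at any distance (4.98% of all genes), against 0 within 1 kb. The opened list named 12 (13% of members) at both, against 14% and 19.3% of all genes. A pseudocount of 0.1 kept the direction of every complex level. Genes under 1 CPM, Cox7a1 and Cox8b in most libraries, are limited by depth.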
